A study of Rattus norvegicus with 9 samples.

Results

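The genes described are 9 canonical targets of the transcription factor p53, namely Cdkn1a, Btg2, Ccng1, Mdm2, Bax, Aen, Eda2r, Phlda3 and Zmat3. They were picked by name, with a rule that uses no measured value, although earlier results of these data were known when the choice was made. They make up 9 of the 32883 genes counted in rat liver. The livers came from 9 male Sprague-Dawley rats, 3 in each of 3 groups, and 1 mRNA library was sequenced per rat. Normal control rats (N1, N3 and N12) were fed a normal diet without carcinogen. DEN model rats (M13, M17 and M24) received 0.01% diethylnitrosamine (DEN), a liver carcinogen that alkylates DNA once hepatocytes have activated it, by weekly injection into the abdomen over a course of up to 16 weeks. PZH administration rats (G27, G28 and G42) received the same DEN course and were also given Pien-Tze-Huang (PZH), a Chinese patent medicine, at a dose and up to a week that the labels do not state for the sequenced rats. The study killed rats at several times and used a low and a high PZH dose, so rats of a group may differ in either. The treatment tag of the M rats also reads PZH. The groups here follow the letter in each title together with the study's methods.

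p53 is held at a low level in unstressed cells by Mdm2, a ubiquitin ligase that is itself a p53 target and so closes a feedback loop. DNA damage activates the kinases Atm and Atr, which free p53 from Mdm2, and p53 then raises a set of genes that stop the cell cycle, repair DNA or bring on cell death. In liver exposed to an alkylating agent this set is a usual readout of damage, and Cdkn1a, which blocks cyclin-dependent kinases, is its best known member. Several members answer to other inputs as well. Btg2 and Cdkn1a, for example, are also induced by growth signals and by fasting. By the study's methods the rats were fasted before they were killed, and the part of fasting in these levels was not tested.

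RefSeq promoters of 300 bases on the GRCr8 build, from 250 bases before to 50 after the start site, were matched for 7 of the 9 genes. Bax and Zmat3 had no entry. The p53 half-site, a decamer in which a C and a G at fixed places are set among purines and pyrimidines and which reads as a match on both strands at once, lay in the windows of 3 of the 7 genes, Cdkn1a, Ccng1 and Aen. Of all 33469 RefSeq promoters, 7.98% held one. The 3 windows are shown because they carry the recognised sequence of the factor that defines these genes, with the decamer in capitals.
Cdkn1a promoter, plus strand of chr20:7150682-7150981: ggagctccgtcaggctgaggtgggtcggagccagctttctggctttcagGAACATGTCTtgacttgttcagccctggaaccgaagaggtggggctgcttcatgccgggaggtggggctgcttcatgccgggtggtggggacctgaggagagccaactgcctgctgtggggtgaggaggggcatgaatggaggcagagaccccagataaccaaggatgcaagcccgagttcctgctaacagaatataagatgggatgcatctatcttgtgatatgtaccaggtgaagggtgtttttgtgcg
Ccng1 promoter, minus strand of chr10:25684827-25685126: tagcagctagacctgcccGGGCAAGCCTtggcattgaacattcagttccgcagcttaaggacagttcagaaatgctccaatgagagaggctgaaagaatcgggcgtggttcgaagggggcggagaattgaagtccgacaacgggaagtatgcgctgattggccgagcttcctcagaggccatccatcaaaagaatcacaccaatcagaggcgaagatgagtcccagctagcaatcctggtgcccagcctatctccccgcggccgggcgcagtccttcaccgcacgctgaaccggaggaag
Aen promoter, plus strand of chr1:142224283-142224582: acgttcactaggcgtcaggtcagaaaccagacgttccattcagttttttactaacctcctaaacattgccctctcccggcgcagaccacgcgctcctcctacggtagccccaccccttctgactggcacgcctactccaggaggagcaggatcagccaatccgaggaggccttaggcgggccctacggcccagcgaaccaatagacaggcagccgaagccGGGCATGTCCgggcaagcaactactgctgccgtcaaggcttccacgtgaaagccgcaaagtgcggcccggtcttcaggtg
The decamer began at position -201 from the start site in Cdkn1a, at -232 in Ccng1 and at -30 in Aen. The stricter pattern of CATG, any 6 bases and CATG was in 0 of the 7 windows and in 0.457% of all promoters. It asks for CATG in each decamer of a full site, so it cannot match a site built on the Ccng1 decamer, which holds CAAG. Pairs of decamers with other centres or with a mismatch were not searched, so the 0 does not show that full sites are absent. CATG alone was in 4 of the 7 windows and in 62.6% of all promoters, and overlaps the decamer in Cdkn1a and Aen. These are matches of letters in a short window, and the other windows were searched no further. The expression of the 3 genes differed, since in the DEN model group Cdkn1a was lower than in the normal control group, Ccng1 was higher and Aen did not pass the test.

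Levels are given per rat as CPM, read counts brought to a common library size that was scaled by TMM factors. Libraries held 14922973 to 27161496 counted reads, and a count of 3 reads corresponded to 0.125 to 0.252 CPM. The TMM factors were 0.731 to 0.799 in normal control, 1.21 to 1.58 in DEN model and 0.863 to 0.941 in PZH administration rats. With plain library totals in their place, the median over all genes of the log2 fold change moved by 0.87 for DEN model against normal control rats, by -0.67 for PZH administration against DEN model rats and by 0.23 for PZH administration against normal control rats. Both scalings are therefore given where they disagree. Libraries N3, G28 and G42 lay apart from the other 6 on the second principal component, at 30.4, 30.7 and 65.9 against -34.7 to -7.49, a component with 9.35% of the variance. Nothing in the labels tells these 3 libraries from the rest.

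When DEN model rats were compared with normal control rats, 6 of the 9 genes changed, 4 of them upward and 2 downward. Eda2r, Zmat3, Ccng1 and Mdm2 were higher in DEN model rats, whereas Cdkn1a and Btg2, a pair of cell-cycle inhibitors, were lower. Bax, Phlda3 and Aen did not pass the test. Changed means an adjusted p under 0.05 in the quasi-likelihood test of edgeR, adjusted by Benjamini-Hochberg over the 14255 genes that were tested, and by that rule 45.8% of all genes changed, 25.3% upward and 20.5% downward. All 9 genes passed the filter on low counts, but Eda2r did so through the DEN model rats, where it is high, and could count only as higher. With at least 10 counts in every rat, Eda2r was not tested, and 3 of 8 genes were higher and 2 lower. Over the 9 genes the log2 fold change had a median of -0.04, beside 0.03 over all genes. With library totals the counts were 5 higher and 0 lower, beside 57% and 6.72% of all genes, and the median of the 9 was 0.78 beside 0.89. At the thresholds of the study, a log fold change beyond 2 in either direction with P under 0.001, read here as base 2 and as an unadjusted P because the study states neither, edgeR called 0 of the 9 genes and 12.3% of all genes. An unadjusted p under 0.05 by edgeR was found for 7 of the 9 and for 53.6% of all genes. Without rat M13 the count of changed genes was 3, namely Mdm2, Eda2r and Cdkn1a, and without rat M17 it was 4. Without rat N12 it was 5, with 2 higher and 3 lower.

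**Figure D1:**
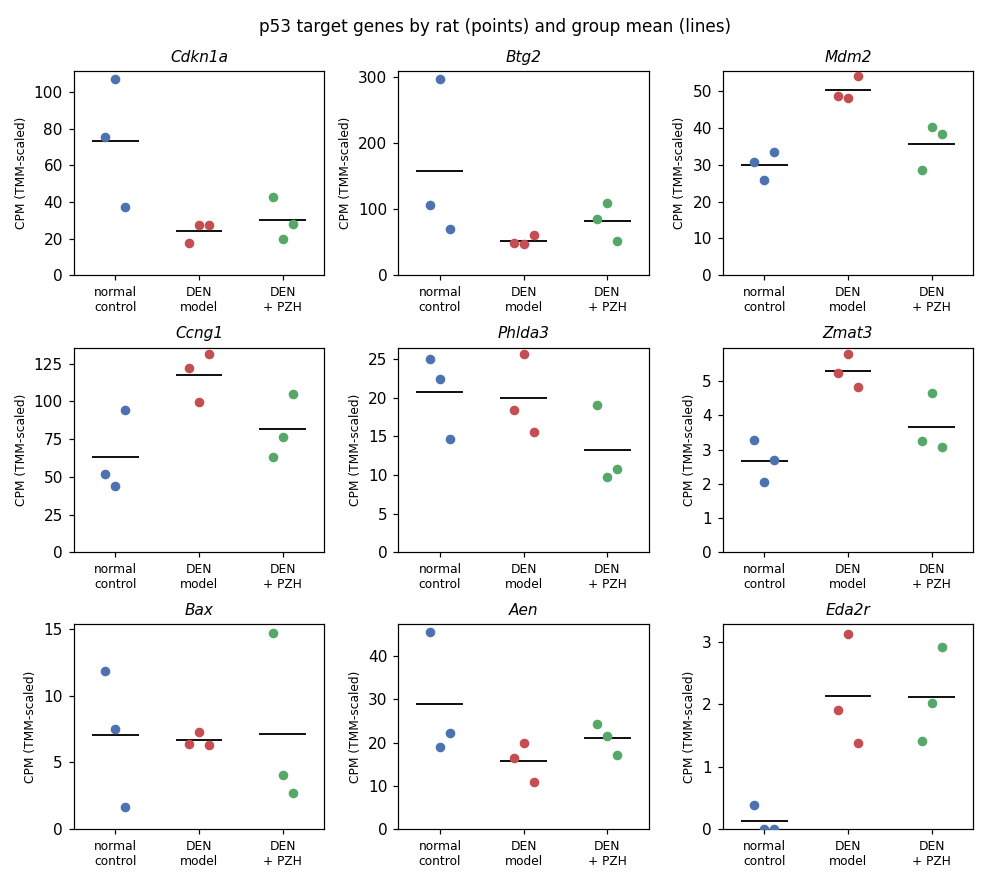
CPM of the 9 genes (vertical axes, linear from 0, TMM-scaled) in each of 9 rats (points) of the normal control, DEN model and DEN plus PZH groups, with the mean of 3 rats as a line. Mdm2 and Zmat3 are highest in the 3 DEN model rats, Cdkn1a and Btg2 have their highest means in normal control rats, and Eda2r is near 0 in normal control rats alone.

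Cdkn1a, the p21 inhibitor of cyclin-dependent kinases (ENSRNOG00000000521, chromosome 20, 6351458 to 6358864 in the coordinates of the deposited table), stood at 75.7, 37.4 and 107 CPM in rats N1, N3 and N12. The DEN model rats M13, M17 and M24 had 17.7, 27.4 and 27.5 CPM. All 3 DEN model rats lay below all 3 normal control rats, although the normal control rats themselves differed by 2.86-fold. The group means were 73.4 ± 34.9 and 24.2 ± 5.66 CPM (SD, n = 3 each), and the log2 fold change was -1.58 with a standard error of 0.36 and an adjusted p of 0.0078 by edgeR. With library totals the difference was -0.75 with an adjusted p of 0.097 by edgeR, so that the direction was kept and the call was lost. Leaving out any single rat kept the call, with log2 fold changes from -1.90 to -1.20.

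Btg2, an antiproliferative early-response gene (ENSRNOG00000003300, chromosome 13, 50913180 to 50916982), was at 107, 70.4 and 298 CPM in N1, N3 and N12. The DEN model rats had 49.3, 47.7 and 61.2 CPM, all below the lowest normal control rat. The normal control mean of 158 ± 122 CPM (SD, n = 3) rests largely on rat N12, and the DEN model mean was 52.7 ± 7.36 CPM (SD, n = 3). The log2 fold change of -1.58 (standard error 0.48) had an adjusted p of 0.026 by edgeR. Without N12 the log2 fold change was -0.73 (adjusted p 0.0458 by edgeR). The call was lost without M13 (-1.53), without M17 (-1.50) and with library totals, where the difference was -0.72 with an adjusted p of 0.20 by edgeR. Rat N12 thus held the highest level of both cell-cycle inhibitors in the series, and M13 and M17 the lowest level of one or the other among DEN-exposed rats.

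Ccng1 encodes cyclin G1, which joins phosphatase 2A to Mdm2 (ENSRNOG00000003256, chromosome 10, 25903911 to 25910325). Its levels were 51.8, 94.5 and 43.6 CPM in N1, N3 and N12, and 122, 99.3 and 131 CPM in M13, M17 and M24. The lowest DEN model rat, M17, lay just above the highest normal control rat, N3. Means rose from 63.3 ± 27.3 to 118 ± 16.5 CPM (SD, n = 3 each), with a log2 fold change of 0.91 (its standard error 0.30, adjusted p 0.0355 by edgeR). This was among the less secure calls, since it was lost without M13, M24, N1 or N12, where the log2 fold change was 0.69 or more.

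Mdm2, the ubiquitin ligase of p53 (ENSRNOG00000006304, chromosome 7, 60719066 to 60743328), was at 30.6, 33.4 and 25.7 CPM in N1, N3 and N12. In M13, M17 and M24 it was at 48.7, 47.9 and 54.0 CPM, and the groups were well apart. Within each group the highest rat was at most 1.41-fold above the lowest, the narrowest spread of the 9 genes over normal control and DEN model rats. Its mean rose from 29.9 ± 3.89 to 50.2 ± 3.29 CPM (SD, n = 3 each), with 0.76 ± 0.16 (standard error) as its log2 fold change and an adjusted p of 0.0058 by edgeR. The call held in all 14 alternatives, in which the log2 fold change ran from 0.66 to 1.64 and the adjusted p by edgeR, DESeq2 or limma from 0.00020 to 0.0273.

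Among the genes linked to cell death, Eda2r had the largest difference. It encodes the receptor of the ectodysplasin A2 ligand in the tumour necrosis factor receptor family (ENSRNOG00000013018, chromosome X, 66561286 to 66602506). Rats N1, N3 and N12 held 5, 0 and 0 reads, while M13, M17 and M24 held 45, 63 and 33 reads, or 1.91, 3.12 and 1.37 CPM. No DEN model rat was near the normal control rats, yet all levels were low. The summed reads gave a ratio of 15.8 with an exact 95% interval of 6.59 to 49.2 that covers counting error only. The fitted log2 fold change of 3.97 (standard error 0.93) depends on how 0 reads are treated and had an adjusted p of 0.0086 by edgeR. The gene passed the filter on low counts through the DEN model rats.

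Zmat3, a zinc finger protein that binds RNA (ENSRNOG00000010119, chromosome 2, 118721334 to 118745766), was at 3.28, 2.69 and 2.06 CPM in N1, N3 and N12 and at 5.23, 5.80 and 4.83 CPM in M13, M17 and M24. The groups did not overlap, and the log2 fold change of 1.00 (standard error 0.30) had an adjusted p of 0.0236 by edgeR. The call was lost without M13, M17 or N12. The means were 2.68 ± 0.610 and 5.28 ± 0.486 CPM (SD, n = 3 each).

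Bax, a pore-forming protein of the mitochondrial death pathway (ENSRNOG00000020876, chromosome 1, 101451802 to 101457207), gave no difference past the test. Normal control rats N1, N3 and N12 had 11.9, 1.68 and 7.48 CPM, a 7.07-fold spread, whereas M13, M17 and M24 had 6.38, 7.28 and 6.29 CPM. The DEN model rats lay inside the range of the normal control rats. The log2 fold change was -0.05 (its standard error 0.53, adjusted p 0.94 by edgeR) and had the opposite sign, 0.76, with library totals. The 3 lowest Bax levels of the series, 1.68, 4.04 and 2.71 CPM, were those of N3, G28 and G42, the libraries that lay apart on the second principal component, and the part of that separation in the Bax levels was not tested.

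Phlda3, an inhibitor of Akt signalling at the membrane (ENSRNOG00000009068, chromosome 13, 52588917 to 52592001), was at 25.0, 14.7 and 22.4 CPM in N1, N3 and N12 and at 18.4, 25.7 and 15.6 CPM in M13, M17 and M24. The groups overlapped and the log2 fold change was -0.04 (its standard error 0.26, adjusted p 0.92 by edgeR). With library totals it was 0.78 with an adjusted p of 0.027 by edgeR, so the scaling alone decides this call. Aen, an exonuclease of the apoptotic pathway (ENSRNOG00000018421, chromosome 1, 140584380 to 140593745), was at 45.6, 22.3 and 19.0 CPM in N1, N3 and N12 and at 16.4, 19.9 and 10.8 CPM in M13, M17 and M24. Rat M17 lay above N12, and the log2 fold change of -0.86 (its standard error 0.35, adjusted p 0.075 by edgeR) did not pass. It was -0.04 with library totals, and it passed without N12, at -1.09 (adjusted p 0.0478 by edgeR).

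**Figure D2:**
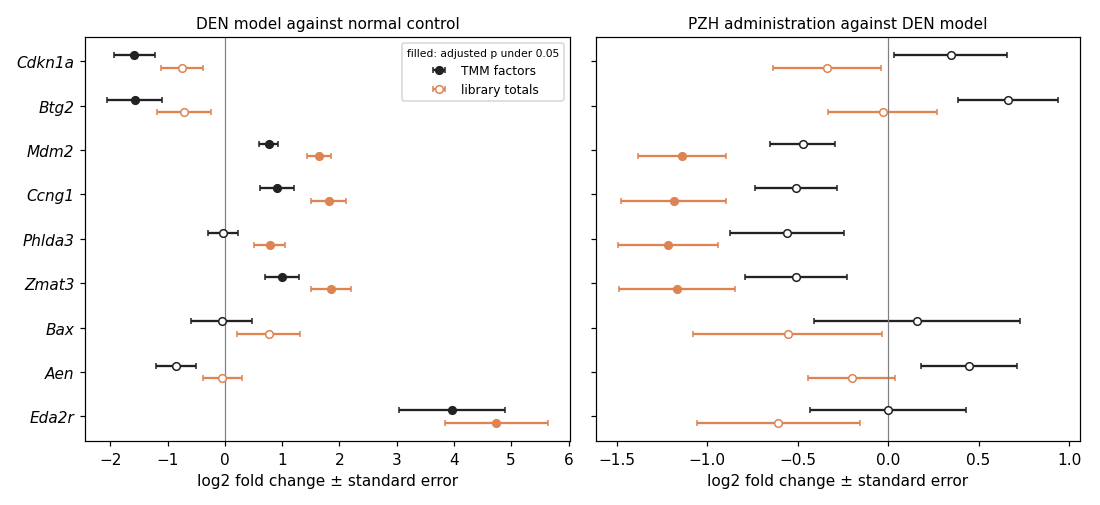
Log2 fold change (horizontal axes, bars are standard errors) of the 9 genes for 2 comparisons, with TMM factors (black) and library totals (orange), where filled points have an adjusted p under 0.05 by edgeR. Library totals shift all points to the right in the first panel and to the left in the second, and in both scalings Cdkn1a and Btg2 lie furthest left in the first panel.

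Because each gene was scaled by the same factor within a rat, the reads of a gene per read of Cdkn1a in the same rat do not depend on the scaling. This measure was added after the levels had been seen. In DEN model rats, 6 of the other 8 genes stood higher against Cdkn1a than in normal control rats without overlap, by a log2 difference of 2.25 for Mdm2, 2.47 for Ccng1, 2.49 for Zmat3, 1.81 for Bax, 1.45 for Phlda3 and 6.03 for Eda2r, all computed with 0.5 reads added. Of all genes tested, 63.6% did so too, so nothing particular to the members is read from this count. The 2 genes that overlapped were Aen, at 0.68, and Btg2, at 0.18. Mdm2 had a mean of -1.17 ± 0.953 log2 reads per Cdkn1a read in normal control rats and 1.08 ± 0.341 in DEN model rats (SD, n = 3 each). Each of the 6 differences had a two-sided exact permutation p of 0.1, the smallest that 3 against 3 rats allow, and an adjusted p of 0.267 over the 24 ratios compared in the 3 pairs of groups. The ratio of Btg2 to Cdkn1a was nearly the same in both groups, while each gene's own level fell with TMM factors.

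**Figure D3:**
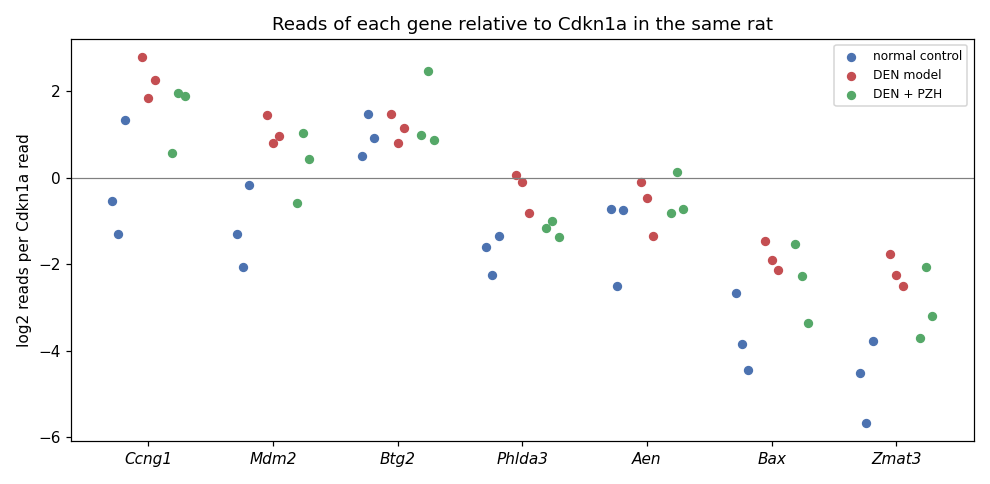
Log2 reads per Cdkn1a read in the same rat (vertical axis) for 7 genes in normal control, DEN model and DEN plus PZH rats, one point per rat. Eda2r is left out because 2 normal control rats had 0 reads, and the red DEN model points lie above all blue normal control points for Ccng1, Mdm2, Phlda3, Bax and Zmat3 but not for Btg2 and Aen.

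The patterns over all 9 rats were compared by the root mean square difference of log2 CPM after each gene was centred on its own mean. The 3 genes nearest to Cdkn1a among 14478 were D2hgdh (0.328), Dpm2 (0.329) and St6galnac4 (0.333). Of the other p53 targets, Btg2 came at rank 694, Phlda3 at 2582 and Aen at 3290. Mdm2 was far down at 9864, as were Zmat3 at 10553, Ccng1 at 11015 and Eda2r at 14118, and Bax was at 8331. Measured from Mdm2, a reference added after these ranks had been seen, Zmat3 came at rank 516 and Ccng1 at 898, with Cdkn1a at 11934. Btg2 was then at 11728, Bax at 11586, Aen at 9628, Phlda3 at 7766 and Eda2r at 13981. Eda2r, with 2 normal control rats at 0 reads, was thus the farthest of the 9 from both references.

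Between genes, levels were compared as FPKM, the deposited values that take gene length into account. In normal control rats Btg2 was highest at 48.7 ± 38.7 FPKM, followed by Cdkn1a at 21.5 ± 10.9, Ccng1 at 11.9 ± 4.48, Phlda3 at 11.4 ± 3.38, Aen at 9.51 ± 4.99, Mdm2 at 5.45 ± 0.522, Bax at 4.04 ± 3.01, Zmat3 at 1.61 ± 0.382 and Eda2r at 0.0420 ± 0.0728 FPKM (SD, n = 3). The rats of neighbours in this order overlapped, except between Aen and Mdm2 and between Zmat3 and Eda2r. In DEN model rats the order was led by Ccng1 at 41.7 ± 10.9 FPKM, ahead of Btg2 at 29.6 ± 7.55, Phlda3 at 19.5 ± 2.33, Mdm2 at 16.95 ± 3.17, Cdkn1a at 12.8 ± 3.19, Aen at 9.21 ± 1.76, Bax at 6.86 ± 0.390, Zmat3 at 5.82 ± 0.302 and Eda2r at 1.19 ± 0.331 FPKM (SD, n = 3). Neighbours overlapped there except between Btg2 and Phlda3, between Bax and Zmat3 and between Zmat3 and Eda2r. Cdkn1a thus ranked below Ccng1, Phlda3 and Mdm2 in DEN model rats and above them in normal control rats. PZH administration rats had Btg2 at 29.0 ± 10.3, Ccng1 at 18.4 ± 5.49, Cdkn1a at 10.1 ± 3.45, Phlda3 at 8.36 ± 2.80, Aen at 8.02 ± 1.11, Mdm2 at 7.71 ± 1.64, Bax at 4.61 ± 4.03, Zmat3 at 2.60 ± 0.672 and Eda2r at 0.791 ± 0.313 FPKM (SD, n = 3), and all neighbours but Zmat3 and Eda2r overlapped. FPKM scale with library totals, and comparisons of one gene between groups on that scale carry the shift described above.

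In PZH administration against DEN model rats, the comparison that asks what PZH changed in DEN-exposed liver, edgeR called 0 of the 9 genes, beside 19.1% of all 14272 genes tested, 8.72% higher and 10.3% lower. Mdm2 and Btg2 had an unadjusted p under 0.05 by edgeR, as did 34.9% of all genes. DESeq2 also called 0 of the 9, and at the study's thresholds 0 of the 9 and 2.43% of all genes were called. The 9 genes had a median of 0.00 on the log2 scale, beside 0.01 over all genes. Mdm2 was at 28.6, 40.2 and 38.3 CPM in G27, G28 and G42, all 3 below the lowest DEN model rat at 47.9 CPM, with a log2 fold change of -0.47 (its standard error 0.18, adjusted p 0.0998 by edgeR). Zmat3 was at 3.24, 4.66 and 3.06 CPM, again below all DEN model rats, with -0.51 (standard error 0.28, adjusted p 0.234 by edgeR). Ccng1 was at 63.2, 76.5 and 105 CPM and overlapped the DEN model rats through G42, with -0.51 (standard error 0.23, adjusted p 0.154 by edgeR). For these 3 genes, all higher in DEN model than in normal control rats, the PZH administration means of 35.7 ± 6.22, 3.66 ± 0.877 and 81.5 ± 21.3 CPM (SD, n = 3 each) lay between those of the other groups. The comparisons share the DEN model rats, so these values are given side by side and no relation between them was tested.

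Eda2r, also called higher in DEN model rats, held 33, 29 and 41 reads in G27, G28 and G42, or 1.41, 2.02 and 2.92 CPM, inside the range of the DEN model rats. The summed reads gave a ratio of 0.955 to the DEN model group with an exact 95% counting interval of 0.733 to 1.24, and the log2 fold change was 0.00 with a standard error of 0.43 (adjusted p 0.999 by edgeR). It was -0.61 with library totals and -0.29 on log2(FPKM + 1), neither past the test. Cdkn1a was at 42.5, 19.6 and 28.2 CPM in G27, G28 and G42, with 0.35 (standard error 0.31, adjusted p 0.468 by edgeR) and overlapping groups. Btg2 was at 84.7, 109 and 51.6 CPM, with 0.66 (standard error 0.28, adjusted p 0.131 by edgeR), and passed only when G42, its lowest PZH administration rat, was left out, at 0.92. Aen (0.45, adjusted p 0.266 by edgeR), Phlda3 (-0.56, adjusted p 0.246) and Bax (0.16, adjusted p 0.869) had overlapping groups too. Phlda3 was at 19.1, 9.74 and 10.8 CPM in G27, G28 and G42, and its 3 lowest levels in the series were, as for Bax, those of N3, G28 and G42. Without G28 and G42 its log2 fold change was -0.0035 (adjusted p 0.995 by edgeR), and the part of these libraries in the Phlda3 level was not tested further. Bax again spread by 5.42-fold over the PZH administration rats, at 14.7, 4.04 and 2.71 CPM, against 1.16-fold over the DEN model rats.

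With library totals this comparison read differently. Mdm2 (-1.14), Ccng1 (-1.19), Phlda3 (-1.22) and Zmat3 (-1.17) were then called lower in PZH administration rats, 4 of the 9 beside 39.9% of all genes, and 0 were called higher beside 3.9%. The deposited FPKM gave the same count of 4 by limma. The members' share is near that of all genes. Per Cdkn1a read, 1 of 8 genes, Phlda3, was lower in the PZH administration group without overlap, by a log2 difference of -0.90 (exact permutation p 0.1, adjusted 0.267), beside 15.5% of all genes.

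In PZH administration against normal control rats, 1 of the 9 genes changed, beside 5.21% of all 13348 genes tested, 4.07% higher and 1.15% lower. This was Eda2r, with a ratio of summed reads of 15.03 (exact 95% counting interval 6.24 to 47.3), a fitted log2 fold change of 3.93 (standard error 0.92) and an adjusted p of 0.045 by edgeR. With 5, 0 and 0 reads in the normal control rats, Eda2r passed the filter on low counts through the PZH administration rats, and the count of 1 rests on it alone. The call was lost without G28, G42, N12 or N3, and without all 3 libraries that lay apart the count was 0. Cdkn1a had a log2 fold change of -1.27 (its standard error 0.39, adjusted p 0.108 by edgeR), with G27 at 42.5 CPM above N3 at 37.4 CPM as the point of overlap, and passed with DESeq2, without G27 and without N3. Mdm2 differed by 0.25 (adjusted p 0.598 by edgeR), Ccng1 by 0.36, Zmat3 by 0.45, Phlda3 by -0.63, Aen by -0.45, Btg2 by -0.94 and Bax by 0.07. At the thresholds of the study 0 of the 9 and 2.32% of all genes were called by edgeR, with 2 of the 9 and 18.5% of all genes at an unadjusted p under 0.05.

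The other genes of the pathway were taken from 5 lists of 66 symbols, of which 59 matched the table and 55 were tested. In DEN model against normal control rats 27 of the 55 changed, 15 higher and 12 lower, or 49.1% beside the 45.8% of all genes. Their median log2 fold change was 0.145.

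Of the genes that sense damage or control p53, 7 of 14 tested were higher, 0 were lower and 7 did not pass, beside 25.3% of all genes higher and 20.5% lower. With library totals 11 were higher and 0 lower, beside 57% and 6.72% of all genes. With TMM factors the log2 fold change was positive in 10 of the 14. It was negative for Rchy1 (-0.53), Cop1 (-0.48), Usp7 (-0.43) and Mdm4 (-0.20), none of which passed. Cdkn2a held 1, 0 and 2 reads in N1, N3 and N12 and 116, 47 and 221 reads in M13, M17 and M24. With so few reads in normal control rats, it passed the filter on low counts through the DEN model rats and could count only as higher. Its Arf product inhibits Mdm2, but reads were counted per gene and do not tell its transcripts apart. The summed reads differed by 71.5-fold, with an exact 95% counting interval of 24.3 to 348. The checkpoint kinases Chek2 (1.90, adjusted p 0.0174 by edgeR) and Atr (1.52, adjusted p 0.00417 by edgeR) rose as well. Chek2, with 5 to 29 reads in normal control rats, passed the filter on low counts only with the DEN model rats. The kinases Atm, Prkdc and Hipk2 were also among the 7.

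Targets that act in cell-cycle arrest numbered 2 higher and 2 lower of 9 tested, and 5 and 1 with library totals. Sfn, the 14-3-3 sigma protein that holds back mitotic entry, went from 2, 1 and 5 reads in N1, N3 and N12 to 247, 90 and 140 reads in M13, M17 and M24, with a log2 fold change of 5.01 (adjusted p 0.000432 by edgeR). Ptprv, a receptor-type phosphatase, had 0 reads in all 3 normal control rats and 29, 20 and 57 reads in the DEN model rats, at least 6.43-fold higher when the mean is set against the floor of 3 counts per library. Both Sfn and Ptprv passed the filter on low counts through the DEN model rats and could count only as higher. The stress kinase Plk3 fell by 1.65 on the log2 scale (adjusted p 0.00508 by edgeR), and not past the test with library totals. Btg1, a relative of Btg2, was the other gene of this list that was lower, by -1.49 with TMM factors (adjusted p 0.000918 by edgeR) and by -0.62 with library totals (adjusted p 0.0238 by edgeR).

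Targets linked to cell death numbered 3 higher and 3 lower of 11 tested, and 6 and 1 with library totals. Pmaip1, the BH3-only protein Noxa, rose by 3.25 (adjusted p 0.00371 by edgeR) and the death receptor Fas by 1.53 (adjusted p 0.00143), while the repressor Bcl6 fell by 2.95 (adjusted p 0.000406). Pmaip1 held 2 to 12 reads in normal control rats. It passed the filter on low counts through the DEN model rats and could count only as higher. Of 8 repair genes 1 was higher and 1 lower, namely the sliding clamp Pcna at 0.76 (adjusted p 0.0116 by edgeR) and the damage sensor Xpc at -0.79 (adjusted p 0.00868), which turned to 0.07 with library totals, where the list had 4 higher and 0 lower. Among 13 genes of metabolism, redox control and matrix, 2 were higher and 6 lower, against 6 and 3 with library totals. Thbs1 (2.71, adjusted p 0.000584 by edgeR), which encodes a matrix protein that is also known in fibrosis, was among the higher genes, and Gls2, a liver glutaminase, fell by 2.43 (adjusted p 0.0151). With library totals the split over the 55 genes was 32 higher and 5 lower, beside 57% and 6.72% of all genes. Nothing particular to these genes is read from that split. The same shares of all genes apply to the library-total counts of each list.

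**Figure D4:**
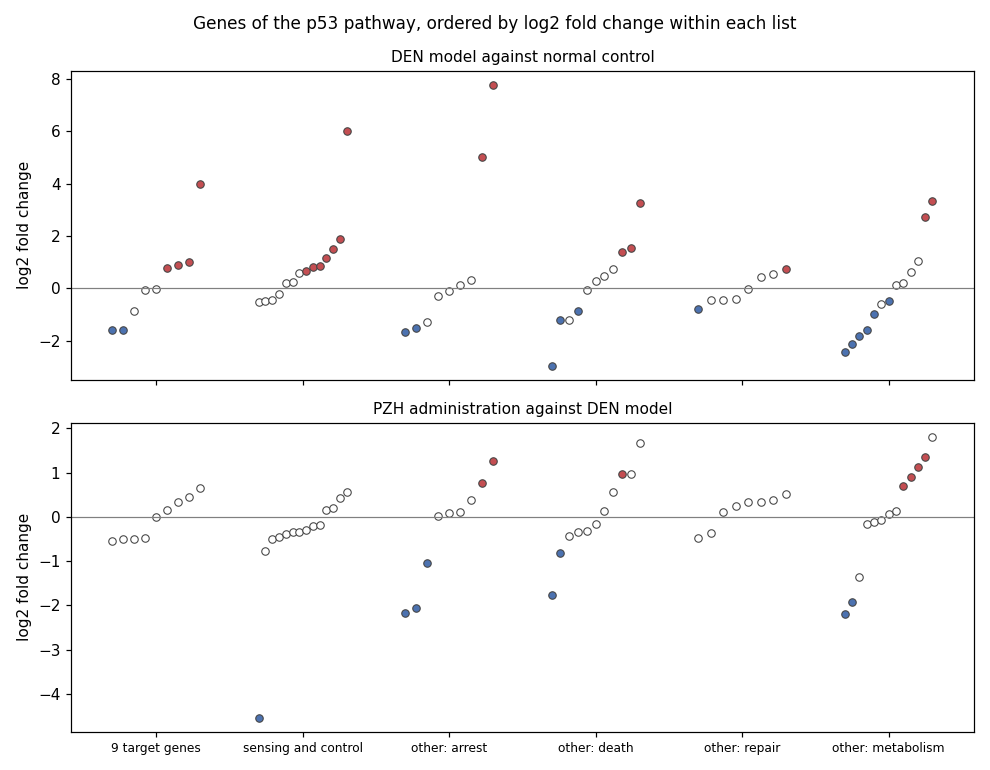
Log2 fold change with TMM factors (vertical axes) of the 9 target genes and of the other genes of the p53 pathway in 5 lists, ordered by value within each list, where red and blue mark genes higher and lower at an adjusted p under 0.05 by edgeR and white marks the rest. In the upper panel the list of sensing and control holds 7 red and no blue points, and the metabolism list holds 6 blue and 2 red, while in the lower panel the 9 target genes are all white.

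In PZH administration against DEN model rats 15 of 55 pathway genes changed, 7 higher and 8 lower, or 27.3% beside 19.1% of all genes. With library totals 24 of the 55 were lower and 0 higher, beside 39.9% of all genes lower and 3.9% higher. Cdkn2a fell by 4.54 (adjusted p 0.0137 by edgeR), to 7, 5 and 0 reads in G27, G28 and G42. It entered this comparison through the DEN model rats, which carried it past the filter on low counts, as did Ptprv. Sfn fell by 2.17 (adjusted p 0.0163), Ptprv by 2.07 (adjusted p 0.0355), Pmaip1 by 1.76 (adjusted p 0.0267) and Thbs1 by 1.93 (adjusted p 0.0102), all by edgeR. Chek2, Atr, Fas, Bcl6, Gls2, Plk3, Pcna and Xpc did not pass. By list the counts were 0 higher and 1 lower of the sensing genes, 2 and 3 of the arrest genes, 1 and 2 of the death genes, 4 and 2 of the metabolism genes and 0 of the repair genes, of which 0 had an unadjusted p under 0.05, beside 34.9% of all genes. The total depended on single rats, and was 1 without M13, 3 without M24, 3 without G28, 5 without G42 and 1 without both G28 and G42, where the remaining rat G27 is taken to vary like the DEN model rats. In PZH administration against normal control rats 3 of 54 changed, or 5.56% beside 5.21% of all genes, namely Sfn (2.79) upward and Plk3 (-1.56) and Sesn2 (-1.23) downward. Sfn held 1 to 5 reads in normal control rats. It passed the filter on low counts through the PZH administration rats and could count only as higher. With library totals both downward calls were lost, at adjusted p 0.0583 for Plk3 and 0.0935 for Sesn2 by edgeR, and Fas (1.31, adjusted p 0.0249 by edgeR) was called higher beside Sfn.

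Markers of cell division and of several liver cell types differed between DEN model and normal control rats. Summed macrophage and endothelial markers overlapped between those 2 groups. Of 9 proliferation genes tested, 8 rose in DEN model rats (9 with library totals), among them Plk1 (5.25), Ccna2 (4.80) and Cdk1 (4.39). Of all genes 25.3% were higher and 20.5% lower, or 57% and 6.72% with library totals. Plk1, Ccna2 and Cdk1 held at most 10 reads in any normal control rat. They passed the filter on low counts through the DEN model rats and could count only as higher. The summed level of the proliferation genes was 11.8 to 16.6 CPM in normal control, 140 to 215 in DEN model and 44.3 to 94.8 in PZH administration rats. Hepatocyte markers (4 of 6 lower in DEN model rats) summed to 109800 to 118800, 17400 to 39730 and 83330 to 116800 CPM in the same order of groups. Cholangiocyte markers (5 of 5 higher) summed to 13.1 to 20.8, 198 to 722 and 74.0 to 87.3 CPM, and stellate cell markers (5 of 5 higher) to 147 to 241, 837 to 2542 and 468 to 560 CPM. Among the cholangiocyte markers, Krt7 and Sox9 held at most 3 and 8 reads in any normal control rat. They too passed the filter through the DEN model rats. Lymphocyte markers (3 of 5 higher, and 5 with library totals) ran from 24.9 to 46.8, 78.8 to 119 and 37.7 to 45.3 CPM. Cd3e, with 3 to 19 reads in normal control rats, passed the filter through the DEN model rats as well. Macrophage markers (0 higher and 1 lower of 5, against 3 and 1 with library totals) ran from 241 to 470, 312 to 404 and 130 to 265 CPM, and endothelial markers (2 higher and 1 lower of 4, against 2 and 0 with library totals) from 212 to 255, 185 to 334 and 195 to 282 CPM. The tissue label of liver was met by the hepatocyte markers in all 9 rats, and none of the summed lists was at 0 in any rat, although Krt7 was at 0 in 2 normal control rats and Cd3e and Ms4a1 in 1 PZH administration rat each. In bulk liver, a change in the number of cells of a type and a change in the RNA per cell cannot be told apart, and the part of these shifts in the levels of the p53 targets was not tested.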

How the data were processed

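The authors deposited whole-number read counts per gene and rat, without normalization, beside FPKM values that they scaled for gene length and library size. The submitters' processing notes name fastp, HISAT2 2.1.0, StringTie 1.3.3b and edgeR 3.30.3 without their roles, and the genome build is not given in the sources used here. Mean, fold change, P and Q columns of the authors' own comparisons were not used.

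Counts were tested in R 4.3.3 with edgeR 4.0.16 (filterByExpr, TMM factors, quasi-likelihood fit and test) using only the 6 rats being compared, with Benjamini-Hochberg adjustment over all genes tested. Summed reads were compared by exact binomial intervals. Alternatives used DESeq2 1.42.0, other size factors, other filters, limma 3.58.1 on log2(FPKM + 1), all 9 rats in one fit, a thinned deepest library and each rat left out. The procedure was tested on simulated data.

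Named genes were all 9 targets, the 3 genes of each list with the largest absolute log2 fold change among those changed in DEN model rats (all where fewer changed), and the 3 genes nearest to Cdkn1a. Some genes that this rule names are not reported here. Members and lists were chosen with earlier results of these data known. Other genes were named after their values were seen. P-values measure the spread between the rats entered in each test. Depth limits genes with few reads, and intervals and floors cover counting error only. Promoters came from RefSeq (GRCr8).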

Additional observations from a re-analysis of the deposited data

How the results depend on the processing

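For DEN model against normal control rats, the count of 6 changed targets was 3 to 6 with 1 rat left out, 0 at the study's thresholds and 6 without N3, G28 and G42 (an alternative chosen after seeing the data, which for this comparison leaves out N3). The 27 changed pathway genes became 8 at the study's thresholds. For PZH administration against DEN model rats, the count of 0 targets was 4 with library totals, 4 with FPKM and 0 to 1 with 1 rat left out. The 15 pathway genes became 24 with library totals, 25 with FPKM, 2 at the study's thresholds, 1 without G28 and G42 and 1 to 14 with 1 rat left out. Against normal control, the PZH administration count of 1 target was 2 with DESeq2, 0 with at least 10 counts in every rat, 0 without N3, G28 and G42, 0 at the study's thresholds and 0 to 2 with 1 rat left out. The 3 pathway genes became 5 with DESeq2, 0 with at least 10 counts in every rat, 6 with all 9 rats in one fit, 1 without N3, G28 and G42, 0 at the study's thresholds and 0 to 4 with 1 rat left out. For the targets, the count of 0 with at least 10 counts in every rat reflects that Eda2r was then not tested. The cause of the other differences was not tested.

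Signs turned in genes that had not passed the test. For DEN model against normal control, Bax was at 0.76 with library totals, 0.0843 with upper-quartile factors, 0.0474 with at least 10 counts in every rat and 0.87 with FPKM, and at -0.52 to 0.52 with 1 rat left out. Phlda3 was at 0.78, 0.10, 0.0626 and 0.76 under the same settings in that order, and at -0.26 to 0.12 with 1 rat left out, and Aen was at 0.0407 with FPKM. For PZH administration against DEN model, library totals and FPKM gave -0.34 and -0.33 for Cdkn1a, -0.56 and -0.72 for Bax, -0.20 and -0.17 for Aen and -0.0292 and -0.0565 for Btg2. Eda2r was at 0.0118 with DESeq2 and 0.0844 with the deepest library thinned. With 1 rat left out, Eda2r ran from -0.28 to 0.36 and Bax from -0.96 to 0.56, and Bax against normal control from -1.04 to 0.65 (values are log2 fold changes). No paired analysis was possible because the rat numbers are not shared between groups.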
